A study of Mus musculus with 2 samples.

Results

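The Mir30 family was taken here as 6 microRNA (miRNA) genes of the mouse. Its members were chosen by name as the rows Mir30a, Mir30b, Mir30c-1, Mir30c-2, Mir30d and Mir30e of a table of 1638 miRNA features. All 6 were found, each at exactly the position of the gene of that name in GENCODE vM21 on GRCm38. The data came from small RNA sequencing (smRNA-seq) of 1 library of wild-type E14 mouse embryonic stem cells (mESCs) and 1 of male prospermatogonia. The methods describe naive E14 mESCs as grown without feeders in medium with LIF and the inhibitors of MEK and GSK3 known as 2i. The title of the mESC library does not name 2i or the naive state. The male prospermatogonia, germ cells from the testis of the fetus, were wild-type and came from E15.5 embryos. The prospermatogonia, which the labels call primordial germ cells, were of the C57Bl/6J background from females carrying an Oct-4/GFP transgene. Cell type, strain and growth in culture or in the embryo differ together between the libraries and cannot be told apart. With 1 library per condition, no difference between them has a replicate check. All intervals are at 95% and take account of the counting error of reads alone. PCR copies of a molecule are counted as separate reads, so that the intervals may be too narrow.

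A miRNA gene is transcribed as a hairpin, from which Drosha and Dicer cut short mature products that guide Argonaute proteins to target mRNAs. Pairing is led by the seed, the bases near the 5′ end of the mature miRNA, and miRNAs that share a seed are grouped as a family. The miR-30 family is abundant in many differentiated tissues, among them heart and kidney, and has been tied to the control of epithelial state and of autophagy. Its genes lie as pairs at 3 loci.

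The mature sequences show why these genes form a family and where reads of its members can be confused. Sequences of 4 of the 6 members, Mir30a, Mir30c-1, Mir30c-2 and Mir30e, are held in the RefSeq miRNA table (GRCm38.p6), and Mir30b and Mir30d are named only. The capitals mark the seed, bases 2 to 8 of the product of the 5p arm, and miR-384-5p is shown because it was the only product outside the family in that table with the same seed.
miR-30a-5p: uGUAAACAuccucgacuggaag
miR-30e-5p: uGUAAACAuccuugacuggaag
miR-30c-5p: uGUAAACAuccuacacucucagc
miR-384-5p: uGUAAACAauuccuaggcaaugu

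miR-30a-5p and miR-30e-5p differ by a single substitution, C13U, counted from the 5′ end of miR-30a-5p. Both share their first 12 bases with miR-30c-5p and are identical to it at 17 of the 22 bases compared. The opposite arms fall into 2 seed groups, shown here with the seed in capitals, of which miR-30a-3p and miR-30e-3p differ only by G18A.
miR-30a-3p: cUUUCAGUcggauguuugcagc
miR-30e-3p: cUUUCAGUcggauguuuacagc
miR-30c-1-3p: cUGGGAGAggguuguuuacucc
miR-30c-2-3p: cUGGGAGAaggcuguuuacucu

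miR-30c-5p is made by both Mir30c-1 and Mir30c-2. Their hairpins are printed with the 2 mature products of each in capitals, and the first run of capitals is the same 23 bases in both. They lie on chr4:120769534-120769622 (minus strand) and chr1:23291701-23291784 (plus strand).
Mir30c-1: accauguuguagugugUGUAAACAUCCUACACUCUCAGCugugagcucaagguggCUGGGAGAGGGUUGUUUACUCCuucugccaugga
Mir30c-2: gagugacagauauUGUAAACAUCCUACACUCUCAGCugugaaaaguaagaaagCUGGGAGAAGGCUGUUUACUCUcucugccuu

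The longest stretch common to both hairpins was 28 bases, longer than the mature product. A read of miR-30c-5p therefore fits both genes equally, whereas the 3p products differ at 3 bases, G9A, U12C and C22U from miR-30c-1-3p to miR-30c-2-3p. The hairpins of Mir30a and Mir30e share at most 18 bases in a row, fewer than the 22 of either 5p product.

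The members lie on chromosomes 1, 4 and 15. On chromosome 1 (plus strand), Mir30a (23272269 to 23272339) overlaps no other annotated gene, and Mir30c-2, 19361 bases further on, lies in an exon of the long non-coding RNA Gm27028. On chromosome 4 (minus strand), Mir30e (120772606 to 120772697) and Mir30c-1 lie 2983 bases apart, both in an intron of Nfyc, which encodes a subunit of the transcription factor NF-Y. GENCODE places another miRNA gene, Mir30f, on the opposite strand at the position of Mir30e. On chromosome 15 (minus strand), Mir30d (68341208 to 68341289) and Mir30b (68337415 to 68337510) lie 3697 bases apart and overlap exons of the non-coding genes Gm20732, Gm37296 and Gm26621. No other feature of the table overlapped a member on either strand.

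Levels were taken from the deposited log2 values, which correspond to whole reads within 0.0165 reads. Read as log2 RPM (reads scaled to a library of 1000000), they imply library totals of 449643 reads for mESCs and 2869578 for prospermatogonia, of which 110455 and 155237 were on miRNA features. A count of 0 leaves room for 3 reads, equal to a level of 6.67 RPM for mESCs and 1.05 RPM for prospermatogonia. Of the miRNAs that mark pluripotent cells, 12 of 12 had more than 3 reads in mESCs and 6 of 12 in prospermatogonia, where Mir302b, Mir302c and Mir367 were at 0. Together they held 27275 reads in mESCs (24.7% of the miRNA reads) and still 5052 in prospermatogonia (3.25%). The miRNAs of male germ cells had more than 3 reads for 2 of 10 in mESCs, with 6 at 0, and for 10 of 10 in prospermatogonia. This list, chosen with earlier results of these data known, held 14 reads in mESCs (0.0127%) and 16837 in prospermatogonia (10.8%). It leaves out Mir742, Mir883a, Mir883b and Mir471, whose rows lie between those of listed genes. In the same order, these had 1, 127, 41 and 38 reads in prospermatogonia and 0 in mESCs.

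The Mir30 family was present in both libraries, and 3 genes, 1 from each locus, carried almost all of its reads. The 6 members held 2906 reads in mESCs, 2.63% of the miRNA reads (Wilson interval 2.54% to 2.73%). In prospermatogonia they held 7201 reads, 4.64% of the miRNA reads (4.54% to 4.74%). Mir30e, Mir30a and Mir30d together accounted for 97.8% of the family's reads in mESCs and 95.7% in prospermatogonia. The share of the family among miRNA reads was thus 1.76-fold higher in prospermatogonia (1.69 to 1.84), although its level in RPM was lower there. In a whole population of cells, fewer cells that express a miRNA and less of it per cell cannot be told apart.

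Mir30e, of the Nfyc intron, was the highest member in both libraries. It had 1450 reads in mESCs (3225 RPM, exact Poisson interval 3061 to 3395), the 14th rank of all features there, and 2831 reads in prospermatogonia (987 RPM, 951 to 1024), the 11th rank. Whether strand was used in counting is not given in the sources used here, and without it reads of Mir30f cannot be told apart from those of Mir30e.
Mir30a, of chromosome 1, had 773 reads in mESCs (1719 RPM, 1600 to 1845) and 1879 in prospermatogonia (655 RPM, 626 to 685). Since miR-30a-5p and miR-30e-5p differ by a single base and the mismatches allowed in mapping are not given in the sources used here, the exchange of reads between these genes was not tested.
Mir30d, of chromosome 15, had 619 reads in mESCs (1377 RPM, 1270 to 1490) and 2179 in prospermatogonia (759 RPM, 728 to 792). Mir30a and Mir30d thus changed places between the libraries. Mir30a was 1.25-fold above Mir30d in mESCs (1.12 to 1.39), and Mir30d was 1.16-fold above Mir30a in prospermatogonia (1.09 to 1.23), each difference being larger than counting error. Without a sequence of Mir30d at hand, its likeness to Mir30a was not compared, and an exchange of reads between them was not tested either.

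**Figure D1:**
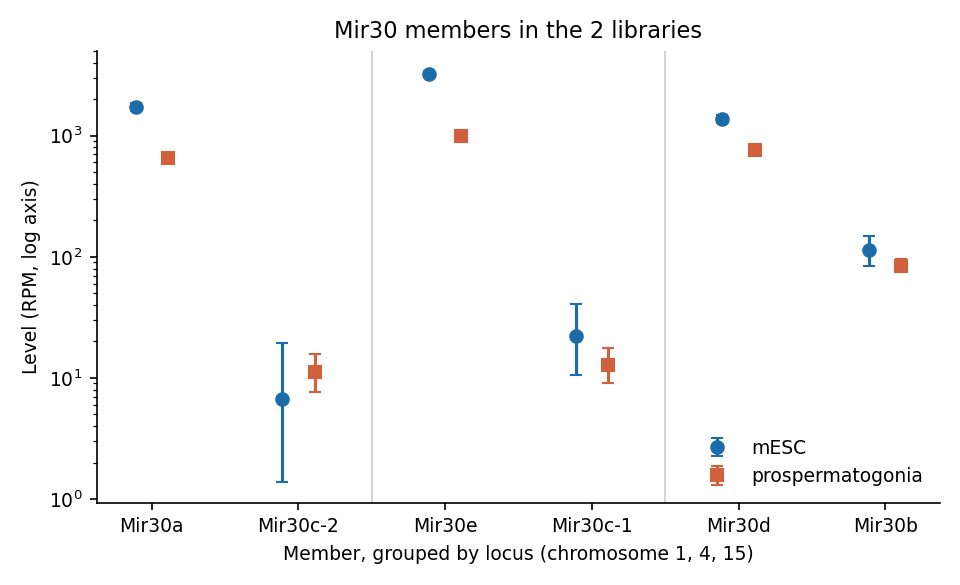
Level of each Mir30 member in RPM (log axis) in the mESC library (circles) and the prospermatogonia library (squares), grouped by locus, with 1 library each and bars for the exact 95% Poisson interval of the reads. Mir30e, Mir30a and Mir30d lie between 655 and 3225 RPM, whereas Mir30c-1 and Mir30c-2 lie between 6.67 and 22.2 RPM.

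The other 3 members were far lower. Mir30b, the partner of Mir30d, had 51 reads in mESCs (113 RPM, 84.5 to 149) and 243 in prospermatogonia (84.7 RPM, 74.4 to 96.0), and these intervals overlap. Mir30c-1 had 10 reads in mESCs (22.2 RPM, 10.7 to 40.9) and 37 in prospermatogonia (12.9 RPM, 9.08 to 17.8). Mir30c-2 had 3 reads in mESCs (6.67 RPM, 1.38 to 19.5) and 32 in prospermatogonia (11.2 RPM, 7.63 to 15.7). Mir30c-1 and Mir30c-2 did not differ beyond counting error in either library, with ratios of 3.33 (0.990 to 11.2) and 1.16 (0.723 to 1.85). All other neighbours in the order of the members differed by more than counting error within each library. The order was the same with reads divided by the length of the hairpin, where Mir30e had 15.8 and Mir30c-2 had 0.0357 reads per base in mESCs, and 30.8 and 0.381 in prospermatogonia.

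The rows of Mir30c-1 and Mir30c-2 may not hold all reads of miR-30c-5p. Together they held 13 of the family's reads in mESCs (0.447%) and 69 in prospermatogonia (0.958%). How reads that match several positions were counted is not given in the sources used here, so that reads of the product that both genes make may be missing from these rows or divided between them. Among table features with 2 mature products in RefSeq, of which 1 is also made by another gene, as for Mir30c-1 and Mir30c-2, 10 of 47 (21.3%) had more than 3 reads in mESCs, against 124 of 277 (44.8%) with no such shared product. In prospermatogonia these were 16 of 47 (34.0%) and 136 of 277 (49.1%). The part of shared sequence in the low level of Mir30c-1 and Mir30c-2 was not tested.

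Within each locus the counted reads were very unevenly divided. The rows of Mir30c-1 and Mir30c-2 may lack reads of miR-30c-5p, so that the ratios on chromosomes 4 and 1 may be too high. On chromosome 4, Mir30e had 145 times the reads of Mir30c-1 in mESCs (78.6 to 267) and 76.5 times in prospermatogonia (55.4 to 106). On chromosome 1, Mir30a had 258 times the reads of Mir30c-2 in mESCs (87.5 to 759) and 58.7 times in prospermatogonia (41.5 to 83.1). On chromosome 15, Mir30d had 12.1 times the reads of Mir30b in mESCs (9.13 to 16.1) and 8.97 times in prospermatogonia (7.85 to 10.2). The interval of the ratio in mESCs overlapped that in prospermatogonia for the pairs on chromosomes 4 and 15 and lay above it for the pair on chromosome 1, where the mESC ratio rests on 3 reads of Mir30c-2.

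The balance between the loci differed between the libraries, and it does not depend on how the libraries are scaled. The Nfyc pair on chromosome 4 made up 50.2% (48.4% to 52.1%) of the family's reads in mESCs and 39.8% (38.7% to 41.0%) in prospermatogonia. The chromosome 15 pair made up 23.1% in mESCs (21.6% to 24.6%) and 33.6% in prospermatogonia (32.6% to 34.7%). The chromosome 1 pair was at 26.7% (25.1% to 28.3%) and 26.5% (25.5% to 27.6%). The shift was thus from the chromosome 4 pair to the chromosome 15 pair, beyond counting error for both, with the chromosome 1 pair within it. These intervals compare 2 libraries and not 2 cell types, as libraries were not repeated within a cell type. Any reads of miR-30c-5p missing from the rows of Mir30c-1 and Mir30c-2 would also change these shares, which was not tested.

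**Figure D2:**
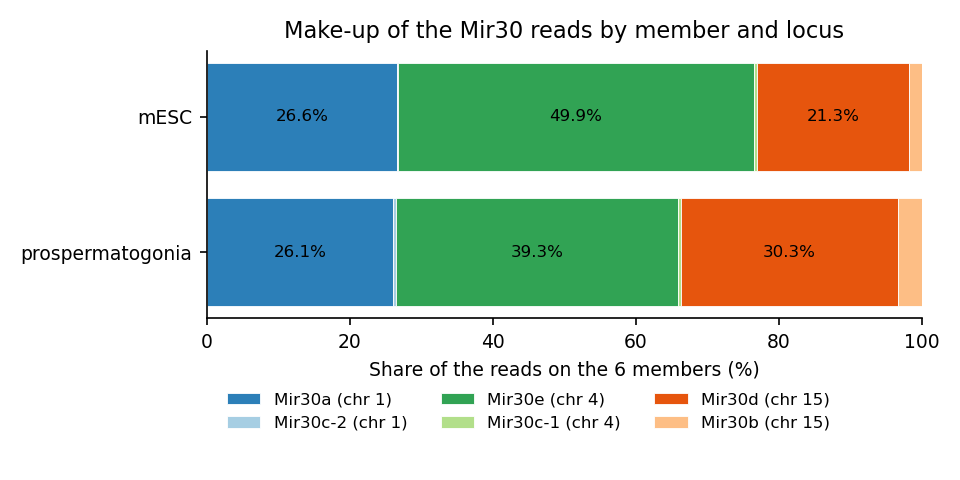
Share of the reads on the 6 Mir30 members that fell on each member (% of 2906 reads in the mESC library and of 7201 reads in the prospermatogonia library), with the members of a locus in shades of 1 colour. Mir30e takes 49.9% in mESCs and 39.3% in prospermatogonia, and Mir30d takes 21.3% and 30.3%.

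Whether the family is lower or higher in prospermatogonia depends on what the libraries are scaled to. In RPM of the library total, the summed family was 2.58-fold lower in prospermatogonia (2.47 to 2.69), at 2509 against 6463 RPM, while relative to all miRNA reads it was 1.76-fold higher. With the values read as log2 RPM, all miRNA reads made up 24.6% of the mESC library and 5.41% of the prospermatogonia library. The authors describe the small RNAs of mESCs as mostly miRNAs. Which reads form the library total here is not given, so that these statements may rest on different denominators. The change of scaling moves every log2 ratio up by 2.18 before the pseudocount of 1 RPM that was added to both levels. For the 203 features that reached 10 RPM in either library, the median log2 ratio of prospermatogonia to mESC was -2.52 in RPM and -0.46 relative to all miRNA reads. The members lay above these medians in both, with medians of -0.80 and 1.34. Only 111 of the 203 features reached 10 RPM in both libraries. The rest, Mir30c-2 among them, entered only through the library where they were higher, which affects these medians.

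All 6 members passed the level of 10 RPM, Mir30c-2 only through the prospermatogonia library. In RPM, 2 of 6 members, Mir30e and Mir30a, were at least 2-fold lower in prospermatogonia, where 80.8% of all features were, and 0 of 6 were at least 2-fold higher, where 9.85% were. The log2 ratio was -1.71 for Mir30e, -1.39 for Mir30a, -0.86 for Mir30d, -0.74 for Mir30c-1, -0.42 for Mir30b and 0.66 for Mir30c-2. Of the 197 other features, between 142 (for Mir30e) and 177 (for Mir30c-2) had a lower ratio than the member. Relative to all miRNA reads, 0 of 6 members were at least 2-fold lower, against 39.9% of all features, and 4 of 6, Mir30d, Mir30b, Mir30c-1 and Mir30c-2, were at least 2-fold higher, against 20.2%. No test was possible with 1 library per condition, and members of a locus may come from the same transcript, so that these counts are a description.

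**Figure D3:**
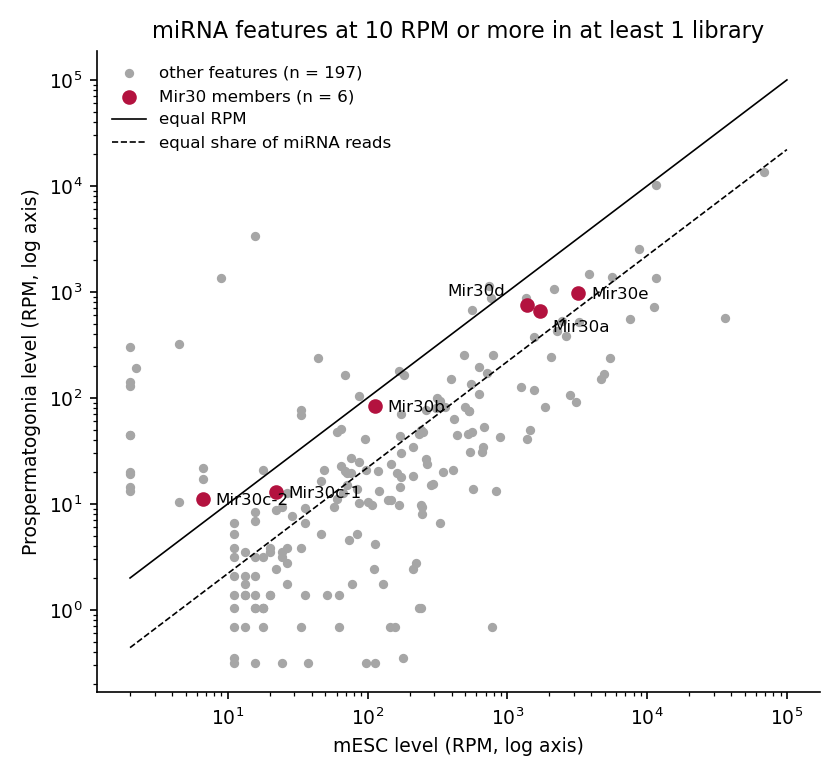
Level in RPM in the mESC library (horizontal) and in the prospermatogonia library (vertical), both on log axes, of the 203 features that reached 10 RPM in either library, with features without reads drawn at 0.9 reads. The Mir30 members (red) all lie above the dashed line of an equal share of miRNA reads, and 5 of 6 lie below the solid line of equal RPM.

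The 3 main members differed among themselves in their ratio. In RPM, Mir30e was 3.27-fold lower in prospermatogonia (3.07 to 3.48), Mir30a 2.63-fold (2.41 to 2.85) and Mir30d 1.81-fold (1.66 to 1.98), whereas as shares of miRNA reads they were 1.39-fold (1.30 to 1.48), 1.73-fold (1.59 to 1.88) and 2.50-fold (2.29 to 2.74) higher. On either scale the intervals of the 3 genes do not overlap. In RPM, the interval reached equal levels for Mir30b, at 1.34-fold lower (0.992 to 1.81) where its share of miRNA reads was 3.39-fold higher (2.51 to 4.58). It also included equal levels for Mir30c-1 at 1.72-fold lower (0.869 to 3.42) and for Mir30c-2 at 1.67-fold higher (0.543 to 5.14), so that a difference in RPM was not detectable at this depth, while as shares both were higher, 2.63-fold (1.33 to 5.22) and 7.59-fold (2.47 to 23.3). Taken as loci and in RPM, the chromosome 4 pair was 3.25-fold lower (3.05 to 3.46), the chromosome 1 pair 2.59-fold (2.38 to 2.82) and the chromosome 15 pair 1.77-fold (1.62 to 1.92), whereas as shares of miRNA reads the same pairs were 1.40-fold (1.31 to 1.49), 1.75-fold (1.61 to 1.90) and 2.57-fold (2.36 to 2.80) higher in prospermatogonia.

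**Figure D4:**
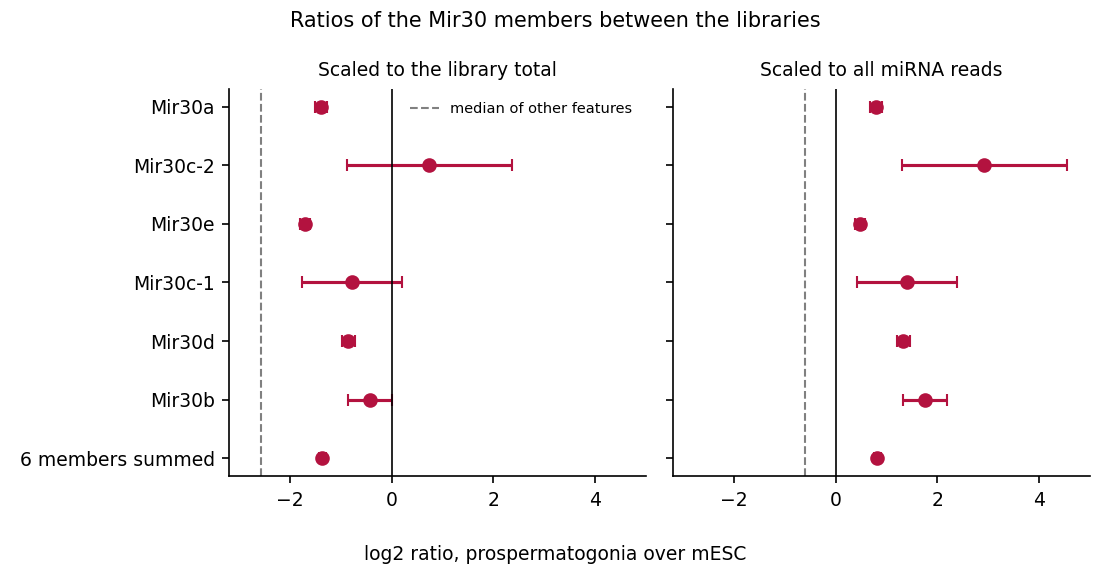
Log2 ratio of prospermatogonia to mESC for each Mir30 member and for the 6 summed, without a pseudocount, scaled to the library total (left) and to all miRNA reads (right), with 95% intervals from the reads. The dashed line is the median of the 197 other features (-2.58 and -0.60, with a pseudocount of 1 RPM), and each member's point lies to its right in both panels.

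Mir384, the gene outside the family whose product has the same seed, had 0 reads in both libraries, so that its level was under the limits of 6.67 and 1.05 RPM given above. It lies on the X chromosome and is known from the brain.

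The family was set beside 3 other families, let-7, Mir15 and Mir16, and Mir29, each of which held a smaller share of the miRNA reads. The 9 genes of the table with a let-7 name, which act in developmental timing and against Lin28, accounted for 0.234% (0.207% to 0.264%) in mESCs and 0.168% (0.149% to 0.190%) in prospermatogonia. The let-7 relative Mir98, with 15 and 11 reads, was not counted among them, nor was Mirlet7e, which has no row of its own name. The feature AC165361.1, on the opposite strand across the position of Mirlet7e (chromosome 17, 17830343 to 17830459), had 20 reads in the mESC library and 686 in that of prospermatogonia. With both added, a choice made after the values were seen, the let-7 share was 0.265% in mESCs and 0.617% in prospermatogonia, so that it turned from 0.720-fold (0.606 to 0.855) to 2.33-fold (2.04 to 2.65) that of mESCs. The 7 genes of the Mir15 and Mir16 family, which target cyclins, held 0.237% (0.210% to 0.268%) and 0.213% (0.191% to 0.237%). The 4 Mir29 genes, which target collagens and DNA methyltransferases, held 0.111% (0.0933% to 0.133%) and 0.0464% (0.0368% to 0.0584%). The median log2 ratio of members above 10 RPM was -1.94 for 4 let-7 genes, -2.52 for 5 of the Mir15 and Mir16 family and -3.42 for 1 Mir29 gene, against -0.80 for the 6 Mir30 genes. In both libraries 4 let-7 genes (Mirlet7c-1, Mirlet7c-2, Mirlet7a-1, Mirlet7a-2) were at 0. These families also hold genes that share mature products, and their shares may be too low.

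The features whose levels were nearest to those of Mir30e, by distance of their log2 RPM over the 2 libraries, were Mir298 (0.58), Mir25 (0.64) and Mir27b (0.93). Mir298 had 977 reads in mESCs and 3057 in prospermatogonia, Mir25 had 1738 and 4250, and Mir27b had 1454 and 1486. With 2 libraries, such nearness is only a likeness of level.

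Marker miRNAs of other cells were measured in both libraries, as shares of miRNA reads. Those of mesenchymal cells had more than 3 reads for 3 of 6 in mESCs (1441 reads in all, 1.30%) and for 1 of 6 in prospermatogonia (262 reads, 0.169%), where Mir145, Mir199a-1, Mir199a-2 and Mir199b were at 0. Mir199a-1 and Mir199a-2, which make the same products, were also at 0 in mESCs. Those of blood cells had more than 3 reads for 1 of 5 in each library (400 reads, 0.362%, and 126 reads, 0.0812%), with Mir144 and Mir223 at 0 in both and Mir451 and Mir486 at 0 in mESCs. Mir126, of endothelial cells, had 255 reads (0.231%) in mESCs and 40 (0.0258%) in prospermatogonia. For the somatic cells of the gonad, 3 miRNAs were looked up after the values were known. Mir202 had 0 reads in mESCs and 57 (0.0367%) in prospermatogonia, Mir140 had 280 (0.253%) and 558 (0.359%), and Mir455 had 9 (0.00815%) and 4 (0.00258%). The shares of the mesenchymal, blood and endothelial lists were thus all lower in prospermatogonia, but each rested almost wholly on 1 feature. Mir143 held 1393 of the 1441 mesenchymal reads in mESCs and 260 of the 262 in prospermatogonia. Mir142 held all 400 blood reads in mESCs and 124 of the 126 in prospermatogonia. Mir451 and Mir486 went the other way, with 1 read each in prospermatogonia. The gonad miRNAs, looked up after the values were known, moved in either direction. The part of any of these miRNAs in the Mir30 levels was not tested.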

How the data were processed

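Small RNA libraries of mESCs and E15.5 male prospermatogonia were made by the authors with a TruSeq small RNA kit and selected by size on a gel. According to the submitters' processing notes, Trim Galore 0.4.1, Bowtie and GRCm38 were used, whereas the methods name piPipes and mm9. Positions were read on GRCm38, where 1300 of the 1638 features (79.4%) matched a GENCODE vM21 miRNA gene base for base. The authors deposited log2 values per feature and library, taken as log2 RPM because the supplement gives this unit for the RNA-seq data. The counting step, its use of strand and its treatment of multiple matches are not given in the sources used here.

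In linear form the deposited log2 values were whole multiples of a constant (2.22 RPM in mESCs, 0.348 RPM in prospermatogonia), taken as 1 read. The lowest value, 0.9 of it, was set to 0 reads. RPM and library totals rest on this reading of the unit, whereas reads and shares of miRNA reads do not. Intervals are 95% Wilson intervals for shares and ratios and exact Poisson intervals for levels. Ratios on the log2(RPM + 1) scale understate the change of low features. Replicates were absent and no test was run.

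The members and lists were chosen with earlier results of these data known. The features named are the 6 members, features with the seed of miR-30a-5p, features overlapping a member, and the 3 nearest to the highest member. Markers were given as summed reads with their shares of miRNA reads, and comparison families as shares and median log2 ratios. Alternatives were other pseudocounts, scalings, filters, a 4-fold threshold and other denominators. The scripts were tested on simulated reads for 1638 features. Values were computed with scipy 1.17.1, pandas 2.3.3 and numpy 2.4.6 under Python 3.11.15, and plots with matplotlib 3.10.9.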

Additional observations from a re-analysis of the deposited data

How the results depend on the processing

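No paired analysis was possible because mESCs and prospermatogonia had 1 library each, and for the same reason no replicate could be left out. The log2 ratio of the summed family, -1.36 in RPM, reversed to 1.01 with scaling to the median ratio, 0.82 with scaling to all miRNA reads and 0.89 with scaling to the sum without the 10 highest features of each library. In the same order, Mir30a (-1.39) reversed to 0.98, 0.79 and 0.86, and Mir30e (-1.71) to 0.66, 0.47 and 0.55. Mir30d (-0.86) also reversed to 1.51, 1.32 and 1.40, Mir30b (-0.42) to 1.94, 1.75 and 1.82, and Mir30c-1 (-0.74) to 1.54, 1.36 and 1.43. Mir30c-2 was already positive in RPM at 0.66 and moved to 2.94, 2.75 and 2.82. These settings by construction move every ratio up alike, and under each of them 0 members were at least 2-fold lower and 4 at least 2-fold higher, in place of 2 and 0. Over all features, 164 were lower and 20 higher in RPM, and between 74 and 81 were lower and between 41 and 45 higher under these scalings. With 10 RPM required in both libraries, which Mir30c-2 did not reach, 91 of 111 features were lower and 5 higher. With every feature with reads 230 were lower and 40 higher. With a 4-fold threshold 0 members were lower and 0 higher, against 131 (64.5%) and 14 (6.90%) of all 203 features. The share of miRNA reads became 9.47% in mESCs and 17.6% in prospermatogonia without the 10 highest features of each library, since the denominator shrinks. Other filters, named features only, pseudocounts of 0.1 and 5 RPM, and locus shares without Mir30c-1 and Mir30c-2 left the family's values within their intervals and the counts as they were. Depth limits Mir30c-1 and Mir30c-2 in mESCs, where 3 reads are 6.67 RPM.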

Other observations

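Shared mature sequences marked other features of the table besides Mir30c-1 and Mir30c-2. All 10 features whose 2 mature products are both also made by another gene in the RefSeq table had 0 reads in both libraries. Of the 47 features with 1 shared product, 2 had more than 100 reads in mESCs and 3 in prospermatogonia, and the highest was Mir92-1 with 5244 and 29587 reads. A shared product was thus not always accompanied by a low count. These classes were formed after the values of the Mir30c rows had been seen, and the cause of the difference was not tested.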
